A study of Oryza sativa Japonica Group with 6 samples.

Results

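The genes described here encode proteins that fold, check and move secretory proteins in rice, and they were followed in the synergids and the antipodals, accessory cells of the embryo sac. Proteins bound for the cell surface or the vacuole enter the endoplasmic reticulum (ER), where BiP and calreticulin hold them during folding and protein disulfide isomerases form and rearrange their disulfide bonds. Derlins help to remove misfolded proteins, IRE1 senses folding stress, and folded proteins leave in vesicles that tethers, fusion factors and sorting factors guide to their target membranes. Synergids, which flank the egg cell, are known as secretory cells that release pollen tube attractants, and antipodals of grasses are known as cells active in transfer and synthesis at the opposite end of the embryo sac.

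Members were chosen by name, not by signal. A gene was a member when its symbol or a synonym, with a leading Os dropped, was BIP, CRT, CNX, PDIL, PDI, SEC, SAR1, ERO1, SYP, VAMP, VPS, VSR, DER or IRE1 with an optional number or letter, and when its probe set was paired with exactly 1 gene. The number could be followed by a letter, and by further numbers after a hyphen or point, as in VPS9A and PDIL1-2. A strict symbol rule, used as an alternative, allowed only 1 number or 1 letter after the family name. Of 17905 genes with a probe set paired with exactly 1 gene, 29 qualified by the wider rule, read by 32 probe sets. Of the 14 family names searched, 8 found a gene and 6 (CNX, SAR1, ERO1, SYP, VAMP and VSR) found none, so SNAREs and vacuolar sorting receptors are not described here. Most genes of the array are known in the annotation by a locus number only, so a secretory gene without a name was not found by this rule.

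For 8 of the 29 genes the label is at odds with the annotation. These are bip103, bip104, bip105, bip115, BIP119, bip128, bip130 and bip131, names given in rice to proteins that interact with the brassinosteroid receptor kinase BRI1, and not to the chaperone BiP. Their synonyms point the same way: BIP119 is also listed as BKI1, which in Arabidopsis is an inhibitor of BRI1, bip104 as SSRP1-A, a histone chaperone subunit, and bip105 as the zinc finger gene OsC3H13. They are kept apart below, and the other 21 genes are called the secretory members. That split was made from the synonyms and not from the values. A ninth gene, SECY, is listed also as CpSecY, a translocase of the chloroplast and not of the ER. It was kept among the 21, and the counts without it are given beside theirs.

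The synergid group comprised 3 arrays of cells taken from the micropylar end of the embryo sac, and the antipodal group 3 arrays of cells taken from its chalazal end, all from wild-type Oryza sativa ssp. japonica, cultivar Katy, grown in a greenhouse under long days and dissected at anthesis without enzymes. The text on labelling names egg cells and zygotes in place of these cells, so the number of cells behind an array is not settled. The arrays are called biological replicates with no plants or days named, and p-values measure only the spread between these samples. Values are linear signal intensities from MAS5, which summarises the probes of a probe set on each array, and all 6 arrays share 1 trimmed mean. Differences are log2 fold changes, synergid minus antipodal, on log2(signal + 16), tested with limma across 34355 probe sets. Intervals are 95% intervals of 1 gene and are not adjusted for the number of genes.

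Antipodal array 2 stood apart: its median signal was 170.3, against 46.5 to 67.1 on the other 5 arrays, and it correlated with them at 0.734 to 0.783 across tested probe sets, against 0.842 to 0.930 among the others. Its hybridisation controls had a geometric mean signal of 97857, against 10792 to 20269 on the other 5 arrays. The poly-A controls ran from 3865 to 41189 on synergid arrays and from 7597 to 134411 on antipodal arrays, and were high on synergid array 2 and antipodal arrays 2 and 3. The part of these control signals in the results was not tested beyond the poly-A block in the closing section. The 2 arrays numbered 1 carry values of up to 9 digits and the 4 others values of up to 10, a difference in number format that was used as a possible grouping. Of 5 marker genes for sporophytic tissue next to the embryo sac, 4 (MADS13, MADS21, MADS3 and MADS29) had every synergid array above every antipodal array. The other, MADS58, overlapped, with means of 4856 in synergids and 5629 in antipodals and a signal of 8879 on antipodal array 2. The summed signals of the 5 genes were 11022 to 15527 in synergids and 4935 to 12222 in antipodals. The 3 green tissue genes summed to 3923 to 8921 in synergids and 5735 to 11493 in antipodals. Most of these sums came from CAB2R, with means of 5601 and 8524. OsrbcS had means of 160 and 157, and RBCS1 was too dim to be tested. The part of cells of these tissues in the results below was not tested. In such pooled cells, fewer cells of a type and less RNA per cell cannot be told apart. No probe set used here carried the name of the synergid gene MYB98, of the egg cell genes ECA1 and DD45 or of the central cell gene FIE1, so the labelled cell types were not checked by markers.

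None of the 21 secretory members passed the test, and most ER folding genes had lower values in synergids. With limma and Benjamini-Hochberg adjustment, 0 of 21 were called at an adjusted p under 0.05, where 0.383% of 15936 tested genes were called (0.0816% lower in synergids) and 0.32% of all tested probe sets (0.256% higher, 0.064% lower). Their adjusted p ran from 0.228 to 0.982. An unadjusted p under 0.05 was reached by 6 of the 21 (BIP4, CRT1, PDIL2-1, PDIL5-2, PDIL5-4 and DER2), all with lower values in synergids, or 28.6%, against 4.17% of all tested genes lower, 5.68% higher and 9.85% in either direction. A log2 fold change below 0 was found for 18 of 21 secretory members and for 49.6% of all tested genes, and the medians were -0.49 and 0.01. Without SECY, 17 of 20 were below 0 with a median of -0.52. The strict symbol rule leaves out VPS9A and every disulfide isomerase gene except PDIL1-1. With it, 8 of 10 were below 0 with a median of -0.17. Within the shorter and the longer number format (no test), 18 and 17 of the 21 were below 0, against 53.8% and 49.5% of all tested genes. Every synergid array lay below every antipodal array for 5 of 21 (23.8%, against 7.58% of all tested genes), and above for 1 of 21 (4.76%, against 7.42%). Among the 14 ER folding members 13 were below 0, with a median of -0.66, and among the 7 others 5 were below 0, with a median of -0.14.

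**Figure D1:**
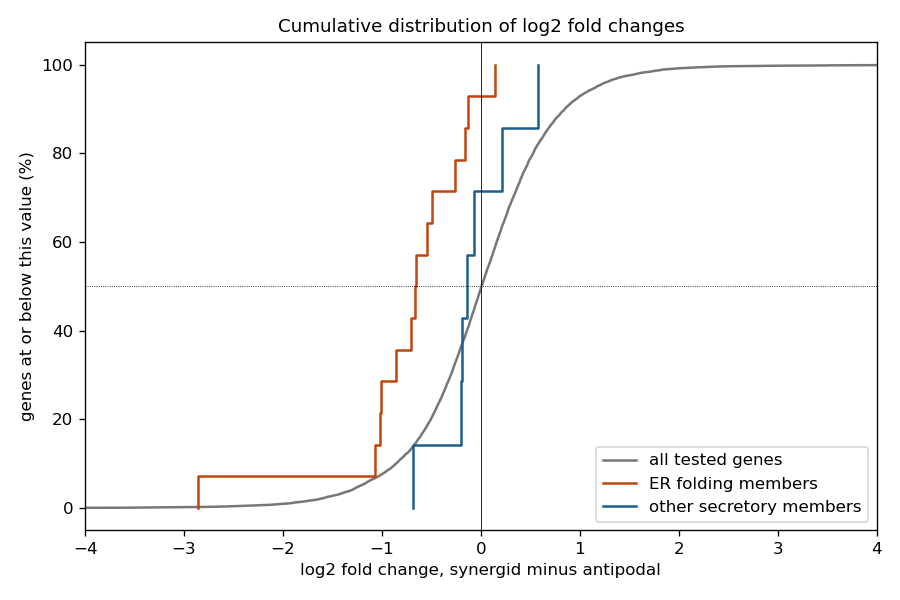
Share of genes (%) at or below each log2 fold change (synergid minus antipodal) for the 14 ER folding members, the 7 other secretory members and all 15936 tested genes. The ER folding curve lies left of the curve of all genes over nearly its whole course, with a median of -0.66 against 0.01, and the curve of the other members has its median at -0.14.

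BiP is the Hsp70 chaperone of the ER lumen, and it was read by probe sets for BIP1 and BIP4. BIP1 (LOC4328075 by gene number), the constitutive form in rice, had signals of 18797, 11538 and 13722 on synergid arrays 1, 2 and 3, against 30838, 15683 and 17228 on the antipodal arrays. The groups overlapped, since synergid array 1 exceeded antipodal arrays 2 and 3. It averaged 14686 ± 3724 on synergid arrays and 21250 ± 8340 on antipodal arrays (SD, n = 3 each), a log2 fold change of -0.49 (SE 0.34, interval -1.22 to 0.23, limma adjusted p = 0.743).

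BIP4 (LOC4338866), a BiP copy known in rice for its induction by ER stress, had the lowest log2 fold change among members. Its signals were 197, 15.3 and 30.6 on the synergid arrays, against 602, 671 and 262 on the antipodal arrays. All 3 antipodal arrays were above all 3 synergid arrays, and 2 of the synergid values lay below the signal of 36.7 that marks the lowest 40% of probe sets by mean. It averaged 81.0 ± 101 on synergid arrays and 512 ± 219 on antipodal arrays (SD, n = 3 each), which is 7.24-fold lower on the log2(signal + 16) scale (log2 fold change -2.86, SE 0.77, interval -4.50 to -1.21), and it was not called (limma adjusted p = 0.228). The size rests on the pseudocount and on synergid array 1. A pseudocount of 1 gave -3.34 and a pseudocount of 64 gave -2.12. Leaving out synergid array 1 gave -3.68, and the gene was then called (limma adjusted p = 0.0366; range over the 18 other settings 0.0366 to 0.806). The value was -1.54 within the shorter number format (1 array each, no test) and -3.52 within the longer.

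Calreticulin, a lectin that binds glucosylated glycoproteins and calcium in the ER, was read by 1 gene, CRT1 (CRO1 in RefSeq). Its signals were 15557, 13247 and 9591 on the synergid arrays, against 25008, 34502 and 18685 on the antipodal arrays, with no overlap. It averaged 12798 ± 3008 on synergid arrays and 26065 ± 7961 on antipodal arrays (SD, n = 3 each), which is 2.01-fold lower (log2 fold change -1.01, SE 0.33, interval -1.71 to -0.31, limma adjusted p = 0.381). The difference was -0.68 within the shorter and -1.17 within the longer number format.

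**Figure D2:**
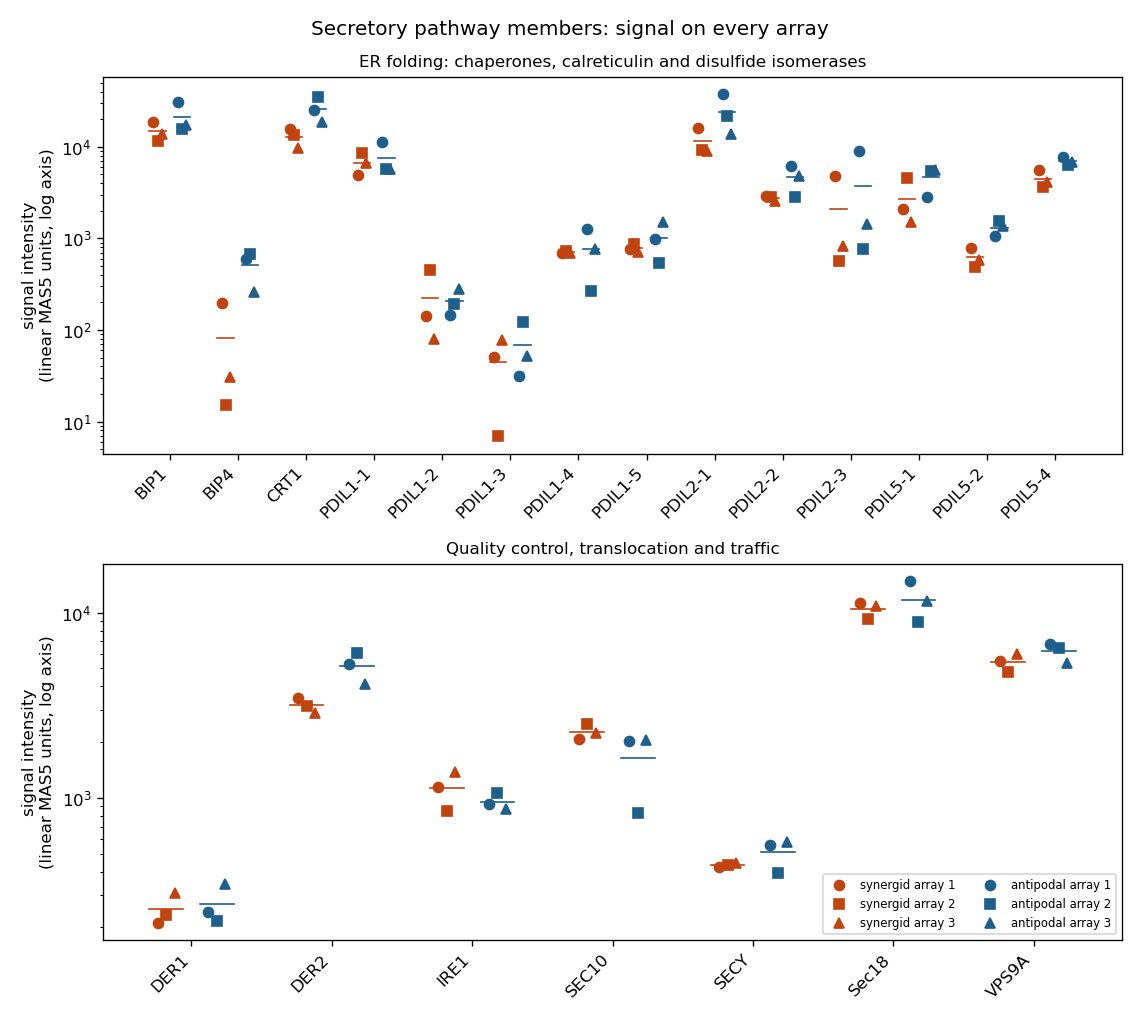
Signal intensity (linear MAS5 units, log axis) of the 21 secretory members on every array, synergids left and antipodals right for each gene. Marker shapes give the array number and short lines the group means. For BIP4, CRT1, PDIL5-2, PDIL5-4 and DER2 all synergid points lie below all antipodal points, and for SEC10 all lie above.

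Protein disulfide isomerases were the largest group, with 11 genes. Of these, 0 passed, 10 had a log2 fold change below 0 and 1 (PDIL1-4, 0.14) above, and the median was -0.66. Rice genes of this family carry names from more than 1 scheme, so that PDIL2-1 is also a synonym of PDIL1-4 and PDIL5-1 a synonym of PDIL2-3. The names used here are of the scheme in which these genes are PDIL1-1 to PDIL1-5, PDIL2-1 to PDIL2-3, PDIL5-1, PDIL5-2 and PDIL5-4.

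PDIL1-1 (LOC4350002), the isomerase known from the rice endosperm for the maturation of glutelin precursors, had signals of 4861, 8470 and 6632 on the synergid arrays, against 11139, 5687 and 5643 on the antipodal arrays. The groups overlapped, with antipodal array 1 highest and synergid array 1 lowest. The log2 fold change was -0.13 (SE 0.35, limma adjusted p = 0.944), and the interval, -0.89 to 0.63, leaves room for differences of up to 1.85-fold on the lower and 1.55-fold on the higher side. Within the number formats it had opposite signs, -1.19 in the shorter and 0.40 in the longer.

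PDIL2-1 (LOC4337858) was read by 2 probe sets that differed in the same direction. The brighter one had signals of 16127, 9245 and 8867 on the synergid arrays, against 37296, 21416 and 13866 on the antipodal arrays. Synergid array 1 exceeded antipodal array 3, and every other synergid value was below every antipodal value. The log2 fold change was -1.02 (SE 0.38, interval -1.84 to -0.21, limma adjusted p = 0.492), a 2.03-fold lower level in synergids. The second probe set gave 7697, 2579.9 and 1786 in synergids and 18300.4, 8322 and 6839 in antipodals, with a log2 fold change of -1.62 (SE 0.49, limma adjusted p = 0.324). The brighter one has a suffix for possible cross-hybridisation, and the second has none.

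PDIL5-2 (LOC4335881) had signals of 792, 481 and 587 on the synergid arrays, against 1049, 1539 and 1348 on the antipodal arrays, with no overlap. Its log2 fold change was -1.07 (SE 0.40, interval -1.92 to -0.22, limma adjusted p = 0.487), 2.11-fold lower in synergids. It was -0.40 within the shorter and -1.41 within the longer number format. PDIL5-4 (LOC4343420), a member of the same subfamily by name, had 5551, 3586 and 4099 in synergids and 7673, 6328 and 6779 in antipodals, again with no overlap. Its log2 fold change was -0.67 (SE 0.31, interval -1.33 to -0.01, limma adjusted p = 0.596).

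The remaining isomerases overlapped between the cell types. PDIL5-1 averaged 2707 ± 1598 on synergid arrays and 4625 ± 1552 on antipodal arrays (SD, n = 3 each), with a log2 fold change of -0.86. PDIL2-2 averaged 2769 ± 159 on synergid arrays and 4613 ± 1719 on antipodal arrays (log2 fold change -0.66), so that the antipodal arrays were the more spread. The intervals of both genes include 0, with upper ends at 0.04 and 0.09. PDIL1-5 (-0.26), PDIL1-2 (-0.17) and PDIL1-3 (-0.54) also overlapped, and the interval of PDIL1-3, -2.36 to 1.27, shows how little its signals of 6.9 to 121 settle. PDIL1-4 had nearly equal synergid signals of 698, 733 and 698, against 1268, 266 and 764 in antipodals, so its spread also lay in the antipodals.

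PDIL2-3 (LOC4347226), an isomerase of the rice endosperm known from the sorting of prolamins, differed more between array numbers than between cell types. Its signals were 4828, 559 and 830 on synergid arrays 1, 2 and 3, against 8976, 759 and 1445 on antipodal arrays 1, 2 and 3. Array 1 was the highest in both cell types. The log2 fold change was -0.70 (SE 0.81, interval -2.44 to 1.04, limma adjusted p = 0.856), and it was 0.32 without antipodal array 1. Its probe set has a suffix for possible cross-hybridisation.

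Array 1 was the highest of both cell types for 6 of 21 secretory members, BIP1, PDIL2-1, PDIL2-2, PDIL2-3, PDIL5-4 and Sec18, or 28.6%, against 13.3% of all tested genes. Synergid array 1 and antipodal array 1 are also the 2 arrays with the shorter number format. Within that format, with 1 array of each cell type and no test, the log2 fold changes of these 6 genes were -0.71, -1.21, -1.12, -0.89, -0.47 and -0.40. Within the longer format they were -0.39, -0.93, -0.43, -0.61, -0.77 and -0.01. The signs were the same in both formats, but the last value, of Sec18, was very small. Without antipodal array 1, PDIL2-3 and Sec18 had 0.32 and 0.043. The part of the format in the levels was not tested.

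**Figure D3:**
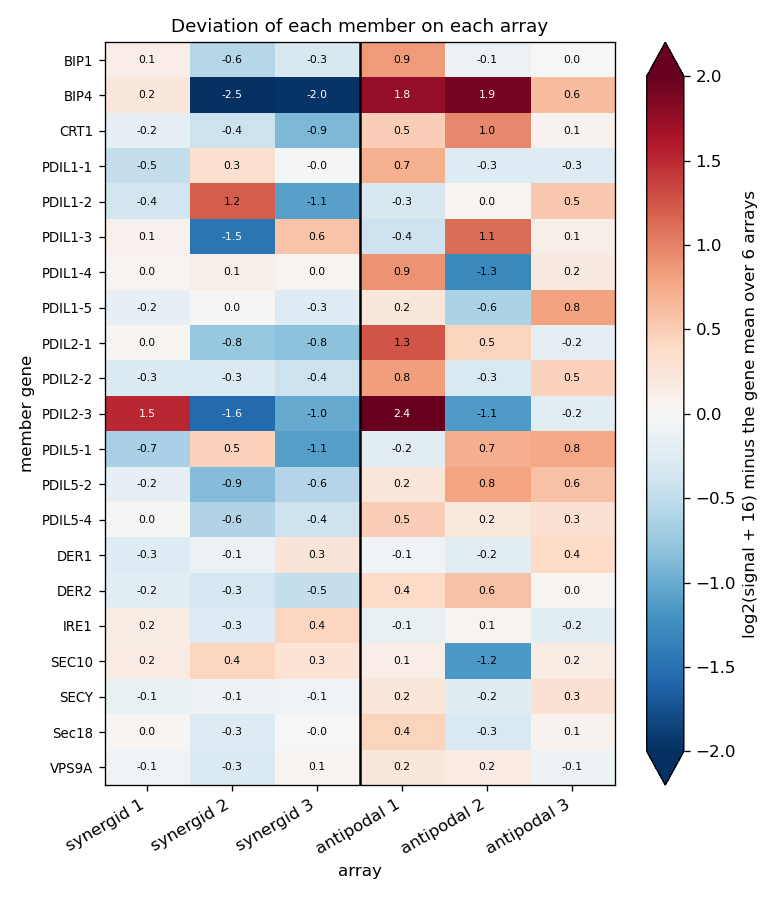
Deviation of each secretory member from its own mean over the 6 arrays, in log2(signal + 16), with synergid arrays left of the line and antipodal arrays right of it. BIP4 is low on synergid arrays 2 and 3, PDIL2-3 is high on array 1 of both cell types, and SEC10 and PDIL1-4 are low on antipodal array 2.

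The 3 genes of ER quality control and stress sensing had log2 fold changes on both sides of 0. DER2 (LOC4334809), a derlin of the ER-associated degradation pathway, had signals of 3468, 3151 and 2887 on the synergid arrays, against 5256, 6053 and 4127 on the antipodal arrays. There was no overlap, and the log2 fold change was -0.68 (SE 0.31, interval -1.35 to -0.02, limma adjusted p = 0.593), with -0.60 and -0.73 within the shorter and the longer number format. The other derlin gene, DER1 (LOC4338013), had 211, 235 and 309 in synergids and 242, 218 and 341 in antipodals, which overlap (log2 fold change -0.07, interval -1.23 to 1.08).

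IRE1 (LOC4343198), the kinase and ribonuclease that senses unfolded proteins in the ER, had signals of 1141, 853 and 1389 on the synergid arrays, against 924, 1069.5 and 873 on the antipodal arrays. The groups overlapped, with a log2 fold change of 0.21 (SE 0.38, interval -0.60 to 1.03, limma adjusted p = 0.913). The transcription factor gene whose mRNA IRE1 splices in rice, BZIP50 (also BZIP74), was no member but belongs to the list of other secretory genes. It had 991, 865 and 761 in synergids and 1503, 1738 and 1450 in antipodals, with no overlap and a log2 fold change of -0.83 (SE 0.36, interval -1.60 to -0.06, limma adjusted p = 0.571). A signal of the array does not tell spliced from unspliced mRNA.

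The genes of membrane fusion and vacuolar sorting had log2 fold changes close to 0. Sec18 (LOC4339340), the NSF ATPase that takes SNARE complexes apart after fusion, had signals of 11271, 9190.3 and 10907 on the synergid arrays, against 14830.3, 8887 and 11505 on the antipodal arrays. The groups overlapped on both sides, and the log2 fold change was -0.14 (SE 0.31, interval -0.79 to 0.51, limma adjusted p = 0.929). VPS9A (LOC4332330), which activates the small GTPase Rab5 and directs storage proteins to the vacuole in rice endosperm, had 5492, 4785 and 5987 in synergids and 6752, 6442 and 5380.0 in antipodals, with overlap (log2 fold change -0.19, interval -0.83 to 0.45, limma adjusted p = 0.899). The only probe set of VPS9A has a suffix for possible cross-hybridisation. The ends of the intervals correspond to 1.74-fold lower and 1.43-fold higher for Sec18, and to 1.77-fold lower and 1.36-fold higher for VPS9A.

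SEC10 (LOC4351857), a subunit of the exocyst that tethers secretory vesicles to the plasma membrane, was the 1 secretory member with every synergid array above every antipodal array. Its signals were 2071, 2502 and 2252 in synergids, against 2041, 827 and 2062 in antipodals. Antipodal array 2 was far below the others, while antipodal arrays 1 and 3 lay just below synergid array 1. The log2 fold change was 0.58 (SE 0.40, interval -0.28 to 1.43, limma adjusted p = 0.743) and 0.14 without antipodal array 2. SECY (LOC4345097), the chloroplast translocase gene, had 427, 434 and 446 in synergids and 554, 395 and 579 in antipodals (log2 fold change -0.20). Its second probe set gave -0.25.

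**Figure D4:**
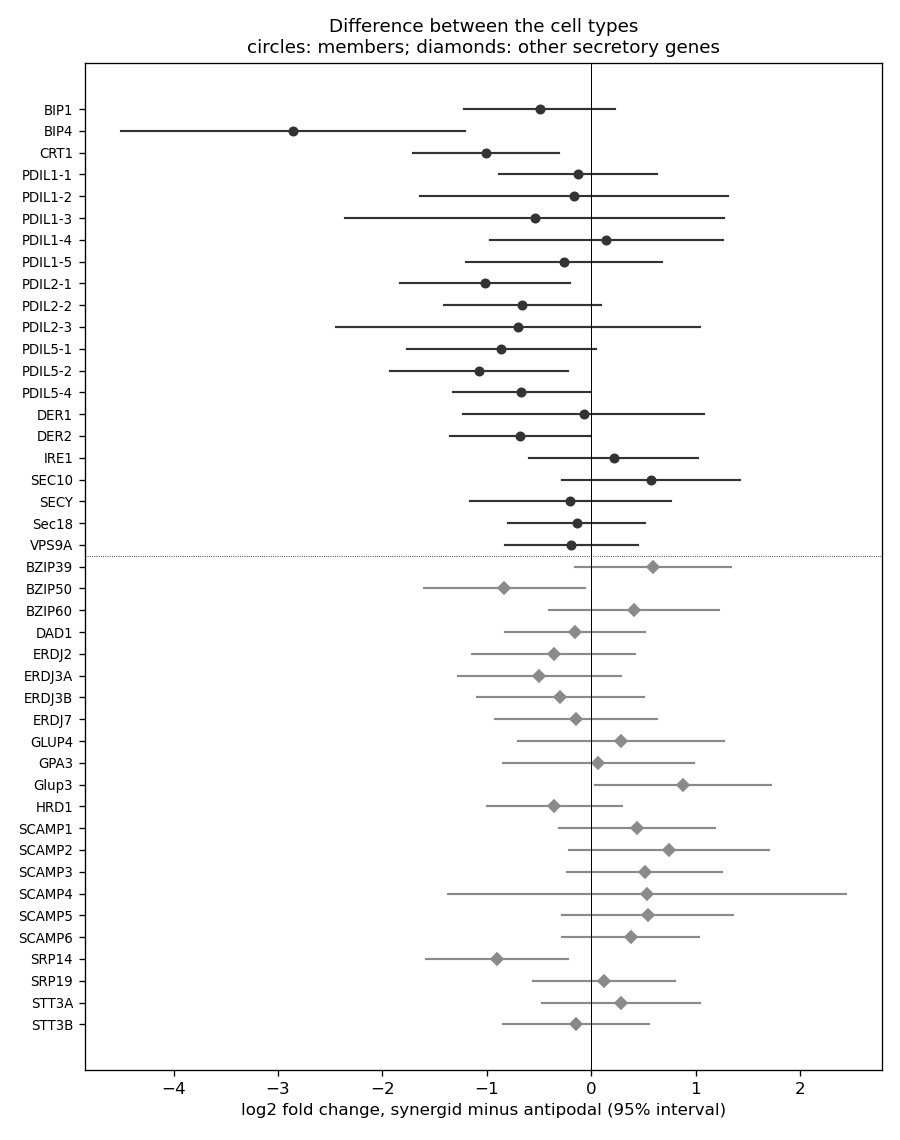
Log2 fold change (synergid minus antipodal) with its 95% interval for the 21 secretory members (circles, above the dotted line) and the 22 other secretory genes (diamonds). Intervals are not adjusted for the number of genes, and no gene shown was called. BIP4 lies lowest at -2.86, and the 6 SCAMP genes all lie above 0.

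The other genes of the pathway were taken from a list of symbols. It matched 46 genes, of which 24 only share a symbol with the pathway (auxin response factors named ARF, abscisic acid responsive proteins named RAB, AGD2 and the G protein gene GPA1), which left 22 secretory genes, all of them tested. Of these, 0 were called with limma, 9 had a log2 fold change below 0 and 13 above, with a median of 0.20 against 0.01 for all tested genes. An unadjusted p under 0.05 was reached by 3 of 22 (13.6%, near the 9.85% of all tested genes), BZIP50 and SRP14 with lower values in synergids and Glup3 with higher ones. The list as matched, with 45 of 46 genes tested, also had 0 called, 19 below 0 and 26 above.

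All 9 values below 0 belonged to genes that act in the ER or in its service, a grouping made after the values were seen. Genes of the same grouping, STT3A, SRP19, BZIP39 and BZIP60, lay above 0. The J-domain cofactors of BiP, ERDJ2, ERDJ3A, ERDJ3B and ERDJ7, were all below 0, from -0.50 for ERDJ3A to -0.14 for ERDJ7. HRD1, a ubiquitin ligase of ER-associated degradation, had 4087, 3589 and 4034 in synergids and 4946, 5806 and 4315 in antipodals, with no overlap but a log2 fold change of -0.35 (SE 0.30). SRP14, a subunit of the signal recognition particle that brings ribosomes to the ER, had 2303, 2166 and 2723 in synergids and 5541, 3787 and 4290.1 in antipodals (log2 fold change -0.90, SE 0.32, limma adjusted p = 0.457). Another subunit of that particle, SRP19, had a log2 fold change of 0.12. The oligosaccharyltransferase genes STT3A (0.28), STT3B (-0.15) and DAD1 (-0.15), which attach N-glycans, lay near 0. A dimmer probe set of STT3A had the opposite sign, with -0.85 (SE 0.71) and overlapping arrays. The ER stress transcription factor genes BZIP39 (0.59) and BZIP60 (0.41) lay above 0, unlike BZIP50. The probe sets of BZIP39 and BZIP60 have a suffix for possible cross-hybridisation, and that of BZIP50 has none.

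The listed genes that act after the Golgi were also grouped after the values were seen. All had log2 fold changes above 0, and none was called. This direction was not shared by both number formats: 6 of these 9 genes (SCAMP1, SCAMP2, SCAMP4, SCAMP5, GLUP4 and GPA3) were below 0 within the shorter format, and 0 of 9 within the longer, with medians of -0.14 and 0.70. SCAMP1 to SCAMP6, secretory carrier membrane proteins of the plasma membrane and trans-Golgi network, had log2 fold changes from 0.38 to 0.75 with a median of 0.52, all with overlapping arrays and limma adjusted p from 0.706 to 0.906. Glup3, which encodes the vacuolar processing enzyme VPE1, had 2000.4, 3522 and 3266 in synergids and 1627, 972 and 2320 in antipodals (log2 fold change 0.88, SE 0.39, limma adjusted p = 0.585). Its next probe set by brightness had 1.17 and no overlap. The genes that work with VPS9A in vacuolar sorting, GLUP4 (Rab5A) and GPA3, had log2 fold changes of 0.28 and 0.06, against -0.19 for VPS9A. The brightest probe sets of SCAMP2, Glup3 and GPA3 have a suffix for possible cross-hybridisation.

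The 8 genes named for interaction with BRI1 showed no common direction. BIP119 was left out as dim, with signals of 4.4 to 46.7 on all arrays. Of the 7 tested, 0 were called, 4 had a log2 fold change below 0 and 3 above, and the median was -0.13. Only bip103 had no overlap, with 13009, 12790.4 and 16738 in synergids and 12088, 9359 and 8056 in antipodals (log2 fold change 0.54, SE 0.30, limma adjusted p = 0.680). The lowest value was that of bip131 (-0.88, limma adjusted p = 0.714). The probe sets of bip115 disagreed in sign. The brighter one had 400.0, 348 and 362 in synergids and 374, 759 and 275 in antipodals (log2 fold change -0.21, SE 0.51). The other had 284, 206 and 409 in synergids and 348, 10.6 and 263 in antipodals (log2 fold change 1.13, SE 0.86). Both overlapped, and antipodal array 2 was the highest array of the one and the lowest of the other. The others were bip104 (0.29), bip105 (-0.13), bip128 (0.24) and bip130 (-0.15). Over all 28 tested members by the naming rule the median was -0.20, with 22 below 0.

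The median of the 21 secretory members varied with the arrays used and with the scaling. It was -0.68 without synergid array 1 and -0.22 without antipodal array 1, and -0.56 without antipodal array 2, where 19 of 21 were below 0. Centring each array on its median shifted the median of all tested genes to 0.15 and that of the 21 to -0.35, with 15 below 0. The median of the 21 was -0.26 with quantile normalisation, where 16 were below 0, and -0.28 with a pseudocount of 64, where 18 were.

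**Figure D5:**
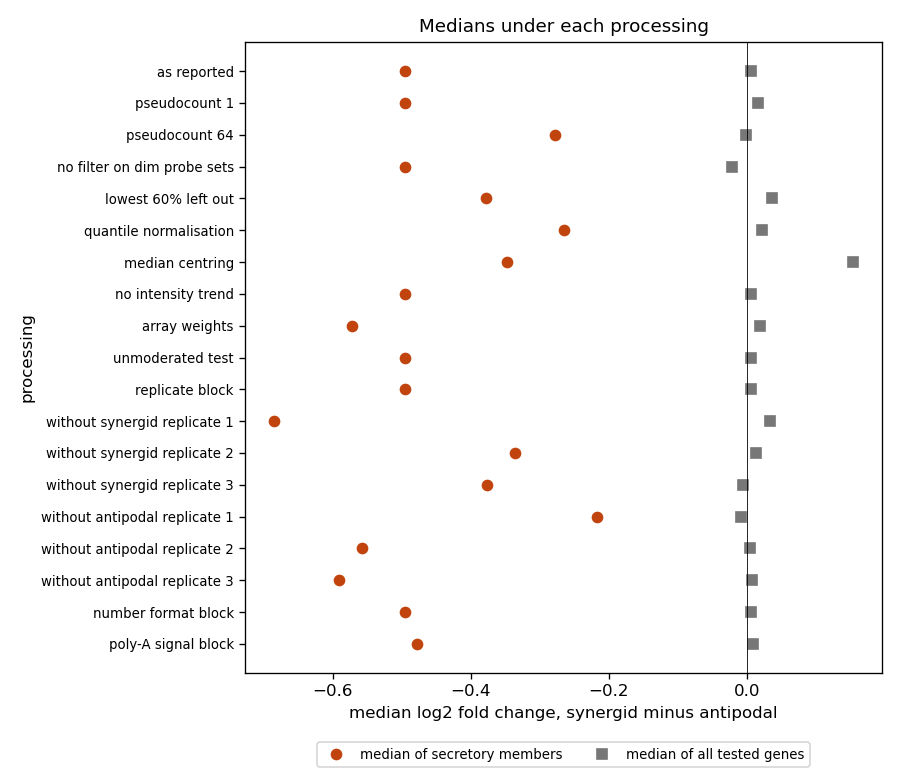
Median log2 fold change (synergid minus antipodal) of the 21 secretory members (circles) and of all tested genes (squares) under each processing. The member median lies below the median of all genes in every setting shown, from -0.68 without synergid array 1 to -0.22 without antipodal array 1.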

How the data were processed

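The authors deposited 1 table of linear signal intensity per probe set for 6 Affymetrix rice arrays; GCOS 2.0 and MAS5 are named per the submitters' processing notes. The trimmed mean was 500.1 on each array, but the medians ran from 46.5 to 170.3. The arrays thus share that mean and not their distribution. No further scaling between arrays was applied in the main test. Of 57381 probe sets, 123 controls were left out. Probe sets were paired with genes by the platform annotation and with synonyms by gene number in a RefSeq table (assembly ASM3414082v1). A gene was represented by its probe set with the highest mean. Intensity was transformed to log2(signal + 16), the dimmest 40% of probe sets by mean were left out (34355 tested), and groups were compared with limma 3.58.1 (R 4.3.3; lmFit, eBayes with intensity trend; 4 residual and 10.6 prior degrees of freedom) with Benjamini-Hochberg adjustment over all tested probe sets. The test was checked on simulated data, where it called 2.8% of 2-fold, 34.8% of 4-fold and 66% of 8-fold changes. Of unchanged probe sets it called 0.0129%. Most differences of 2-fold would thus be missed with these arrays. A fold change on this scale understates that of dim genes.

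Every member is named. Values on each array are given for the brightest member of a role, members without overlap and members with disagreeing probe sets, by a rule; the values of PDIL1-1, PDIL2-3, IRE1, DER1 and of genes outside the rule were added for their role or after they were seen. The members and lists were chosen with earlier results of these data known. The median of the 21 secretory members and the grouping into ER folding, J-domain and SCAMP genes were added as descriptions with no test. In the other list, the genes of the ER and those after the Golgi were grouped after its values had been seen. The homonyms of that list were set apart by name, also after its values had been seen. Same-numbered arrays are not stated to be paired, so the numbers were not taken as pairs in the main test. Their deviations from the group means correlated at 0.22, 0.12 and 0.02 for numbers 1, 2 and 3. Between synergid and antipodal arrays of different numbers the correlations ran from -0.15 to 0.02. Whether the numbers mark pairs was not tested, and the replicate block was run as an alternative. Alternatives were the pseudocount, filter, normalisation, variance model, probe set, symbol rule, replicate block and each left-out array; blocks for number format and poly-A control signal, and leaving out SECY, were added after the data were seen. The number of arrays limits the precision. No genome or sequence was used.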

Additional observations from a re-analysis of the deposited data

How the results depend on the processing

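No member was called in any setting run except BIP4 without synergid array 1, so leaving out 1 array gave 0 to 1 called members. The replicate number as a block (replicate block) called 0 members, and the poly-A and number format blocks 0. The count of 110 called probe sets was 31 without an intensity trend, 193 with array weights, 0 in the unmoderated test, 293 with the replicate block, 284 with the number format block, 235 with the poly-A block, and 42 to 317 with 1 array left out. In the list of other genes 1 gene, the homonym RAB16D, was called with array weights, the replicate block, the number format block and the poly-A block, and 0 to 1 with an array left out (RAB16D without synergid array 1, the auxin response factor ARF1 without antipodal array 1). The median of members by rule was -0.056 with median centring and -0.35 to -0.20 with an array left out. That of the 21 secretory members was -0.17 with the strict symbol rule (10 genes), -0.48 with the poly-A block and -0.68 to -0.22 with an array left out. Log2 fold changes turned sign at least once for 16 of 50 genes, none of them called. With median centring bip105, PDIL1-1, DER1, Sec18 and ERDJ7 had 0.022, 0.018, 0.074, 0.0062 and 0.0043. With quantile normalisation PDIL1-2 and DER1 had 0.14 and 0.21. With array weights bip105, bip115, PDIL1-3, PDIL1-4 and GPA3 had 0.11, 0.080, 0.038, -0.26 and -0.19. With the poly-A block PDIL1-2 and PDIL1-4 had 0.26 and -0.086. Over the 6 runs without 1 array the ranges were -0.30 to 0.21 (bip105), -0.51 to 0.19 (bip115), -0.32 to 0.20 (PDIL1-1), -0.81 to 0.34 (PDIL1-2), -0.96 to 0.053 (PDIL1-3), -0.46 to 0.63 (PDIL1-4), -0.64 to 0.078 (PDIL1-5), -1.63 to 0.32 (PDIL2-3), -0.22 to 0.11 (DER1), -0.33 to 0.043 (Sec18), -0.36 to 0.039 (DAD1), -0.28 to 0.077 (ERDJ7), -0.21 to 0.34 (GPA3), -0.40 to 1.22 (SCAMP4), -0.052 to 0.46 (STT3A) and -0.32 to 0.030 (STT3B). The causes were not tested. Without SECY 0 members were called. PDIL1-3 had no value with the stricter filter, which leaves it out as dim.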
